A study of Mus musculus with 65 samples.

Results

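The cyclin genes Ccnd1, Ccnd2, Ccne1, Ccna2, Ccnb1 and Ccnb2 were chosen by name as the regulatory subunits that carry a cell from G1 into mitosis. All 6 were present among the 11971 genes counted in 65 single cells of the mouse cortex at E13.5. Ccnd2 was the most widespread of the 6, at 10 or more reads per 1000000 reads of a cell (CPM) in 53 of 65 cells, and it reached that level in 70% or more of each marker class, although in only 3 of the 7 cells with Eomes and no other marker. The mitotic cyclin Ccnb1 reached it in 5 of 20 Eomes cells, 4 of 16 Neurod6 cells and 2 of 11 Dlx5 cells, but in 16 of 22 Sox2 cells. A D cyclin without Ccna2, Ccnb1 or Ccnb2 was seen in 7 of 20 Eomes cells, 8 of 16 Neurod6 cells and 7 of 11 Dlx5 cells, and in 3 of 22 Sox2 cells.

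The cells came from C57BL/6J embryos whose brains were pooled after the ganglionic eminences had been cut away from the cortical hemispheres, and cells negative for propidium iodide, a stain of dead cells, went 1 by 1 into full-length cDNA libraries. All 65 carry the same strain, age, tissue and cell type label, so they form 1 group with no replicate animals. Errors below are spreads over cells or exact 95% binomial intervals that cover counting error only, and no test was made from cells. The 4 marker genes, each at 10 CPM or more, gave the classes used here, and a cell may belong to several. Eomes, a T-box factor of intermediate progenitors, marked 20 cells, and Neurod6, a bHLH factor of young excitatory neurons, marked 16 cells, 10 of which also had Eomes. Dlx5, a homeobox factor of interneurons and the ventral forebrain, marked 11 cells. Sox2, a factor of neural stem and apical progenitor cells, marked 22 cells, of which 3 also had Eomes and 4 also had Dlx5. The remaining 13 cells had none of the 4 markers.

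Cyclins bind and activate cyclin-dependent kinases. D cyclins pair with Cdk4 or Cdk6 in G1 and phosphorylate the retinoblastoma protein, which frees E2F factors to switch on E-type and A-type cyclins and the replication genes. Cyclin A then works with Cdk2 and Cdk1 through S phase and G2, and B cyclins with Cdk1 bring the cell into mitosis, after which the anaphase-promoting complex marks them for destruction. In the embryonic cortex, apical progenitors divide at the ventricle and intermediate progenitors divide away from it, while their neuronal daughters leave the cycle. Ccnd2 is the D cyclin that is known to be carried into the basal processes of radial glia and to be needed for normal numbers of intermediate progenitors.

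The total number of reads in genes was 14609426 per cell at the median, with a range of 85338 to 32130629, and it lay under 1000000 in 3 cells. Median totals were 13680226 in Eomes cells, 13317944 in Neurod6 cells, 15325647 in Dlx5 cells and 16551627 in Sox2 cells. Titles divide the cells into 3 numbered sets of 31, 13 and 21 cells with no further explanation, and these were treated as possible batches. All 4 classes drew on all 3 sets, with 11, 4 and 5 Eomes cells, 11, 2 and 3 Neurod6 cells, 7, 2 and 2 Dlx5 cells, and 9, 6 and 7 Sox2 cells in sets 1, 2 and 3. Although every cell is labelled a neural progenitor, the median number of 5 neuronal genes at 10 CPM was 4 in Eomes cells, 4 in Neurod6 cells, 4 in Dlx5 cells and 2 in Sox2 cells. Dlx5 cells had a median of 4 of 6 interneuron genes, although the ganglionic eminences had been removed. Besides these neuronal genes, Eomes cells had a median of 4 of 5 intermediate progenitor genes, and Sox2 cells had 5 of 8 apical progenitor genes. The interneuron, intermediate progenitor and apical progenitor lists include Dlx5, Eomes and Sox2 themselves. That gene is therefore counted in every cell of its class by definition, and these counts are not separate support for the classes. The summed level of 5 erythroid genes ranged from 0 to 5613 CPM in Eomes cells, 0 to 1090 CPM in Neurod6 cells, 0 to 1646 CPM in Dlx5 cells and 0 to 5613 CPM in Sox2 cells, with medians of 197, 36.7, 122 and 462 CPM in that order of classes, and its part in the values below was not tested. Of 3 measured microglial genes the summed level reached at most 93.7 CPM in a cell, and the 4 endothelial genes are not analysed here. Of the 13 cells without a marker, 2 had 5 and 6 of 6 mural and meningeal genes, with summed levels of 11962 and 19800 CPM, and 2 others had 2 of 4 Cajal-Retzius genes, with summed levels of 208 and 2314 CPM.

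Of the 6 genes, 3 had an entry in the RefSeq promoter table (build GRCm38.p6). Shown here are the 250 bases before the annotated start of Ccnb1 and Ccnb2, the B cyclins, because their products act at the same step and because 12 of the 17 cells with Ccnb2 also had Ccnb1. Capitals mark the motifs searched on both strands. These were TTTGAA and TTCGAA (forms of the cell cycle genes homology region, bound by the DREAM and MuvB complexes), TTTNGCGC (a form of the E2F site) and CCAAT (bound by NF-Y). The first window is chr13:100786487-100786736 and the second is chr9:70421555-70421804, both on the minus strand and printed 5′ to 3′ in the direction of the gene.
Ccnb1: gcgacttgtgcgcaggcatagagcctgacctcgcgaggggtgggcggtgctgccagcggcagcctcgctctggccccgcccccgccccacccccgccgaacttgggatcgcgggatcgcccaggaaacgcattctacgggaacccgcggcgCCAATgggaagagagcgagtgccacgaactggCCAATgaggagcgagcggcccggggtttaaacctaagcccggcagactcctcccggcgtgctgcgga
Ccnb2: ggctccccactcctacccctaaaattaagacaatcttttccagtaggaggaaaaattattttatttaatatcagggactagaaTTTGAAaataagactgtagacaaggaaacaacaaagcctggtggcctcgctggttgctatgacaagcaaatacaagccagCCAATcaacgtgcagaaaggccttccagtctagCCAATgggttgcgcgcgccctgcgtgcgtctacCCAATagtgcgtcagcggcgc
The Ccnb1 window held 2 CCAAT boxes, 99 to 95 and 67 to 63 bases before the start, so that they began 32 bases apart. The Ccnb2 window held 3 CCAAT boxes, 87 to 83, 54 to 50 and 21 to 17 bases before the start, each 33 bases from the next, and a TTTGAA 167 to 162 bases before it. Among 27025 RefSeq promoter windows of this length, 10.5% held at least 2 CCAAT boxes, 2.98% at least 3, and 16.3% a TTTGAA. The Ccne1 window, chr7:38107491-38107740, held none of the 4 motifs. Of all windows, 34.5% held a CCAAT, 1.34% a TTCGAA and 1.15% a TTTNGCGC, so most windows lack each of them. Their absence therefore says little about the control of Ccne1. The motifs are matches of sequence only, and binding was not measured here. Distances depend on the start that is annotated, and GENCODE M21 begins Ccnb1 and Ccne1 further upstream.

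Ccnd1, which encodes cyclin D1, reached 10 CPM in 29 of 65 cells (44.6%, interval 32.3 to 57.5%). Its gene lies on chromosome 7, 144929931 to 144939925 (GRCm38, minus strand). It was at that level in 7 of 20 Eomes cells, 4 of 16 Neurod6 cells and 6 of 11 Dlx5 cells, and in 15 of 22 Sox2 cells. Median Ccnd1 levels were 0.109 CPM in Eomes cells, 0 in Neurod6 cells, 138 CPM in Dlx5 cells and 141 CPM in Sox2 cells, with highest cells of 3469, 316, 285 and 3469 CPM and lowest cells at 0 in all 4 classes. The ranges of the 4 classes overlapped, and what set them apart was how many cells had the transcript at all. In Neurod6 cells it was present at 316, 228, 42.2 and 21.3 CPM and otherwise below the level. The highest Ccnd1 cell, at 3469 CPM, was also the shallowest, with 85338 reads, and it counts in both the Eomes and the Sox2 class, where the next value was 973 CPM.

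Ccnd2, which encodes cyclin D2, reached 10 CPM in 53 of 65 cells (81.5%, interval 69.97 to 90.1%). Its gene lies on chromosome 6, 127125162 to 127152193 (GRCm38, minus strand). It was present in 14 of 20 Eomes cells, 13 of 16 Neurod6 cells and 10 of 11 Dlx5 cells, and in 20 of 22 Sox2 cells. The shares were therefore 70% (interval 45.7 to 88.1%), 81.3% (54.4 to 95.95%), 90.9% (58.7 to 99.8%) and 90.9% (70.8 to 98.9%) in that order of classes, and their intervals overlapped. Among cells with exactly 1 of the 4 markers, the share in Eomes cells was 42.9%, or 3 of 7. Its level differed more than its presence. The median was 223 CPM in Eomes cells, 189 CPM in Neurod6 cells and 1248 CPM in Dlx5 cells, and 1055 CPM in Sox2 cells. The lowest and highest cells were 0 and 4758 CPM in Eomes cells, 1.58 and 1192 CPM in Neurod6 cells, 0.109 and 2656 CPM in Dlx5 cells, and 0.111 and 4758 CPM in Sox2 cells. The highest of the 16 Neurod6 cells, at 1192 CPM, was thus only a little above the median of the Sox2 cells.

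Ccnd2 accompanied Ccnd1 in 26 of the 29 cells with Ccnd1 (89.7%), against 81.5% of all cells, and these 26 were 49.1% of the 53 cells with Ccnd2, against 44.6% of all cells with Ccnd1. The overlap was thus near the share of each gene over all cells. Ccnd2 without Ccnd1 was found in 8 of 20 Eomes cells, 10 of 16 Neurod6 cells and 4 of 11 Dlx5 cells, and in 6 of 22 Sox2 cells. Both D cyclins together were found in 6 of 20 Eomes cells, 3 of 16 Neurod6 cells and 6 of 11 Dlx5 cells, and in 14 of 22 Sox2 cells. Of the 20 Eomes cells, the 10 that also had Neurod6 included 8 with Ccnd2 and 2 with Ccnd1, and the 10 without Neurod6 included 6 with Ccnd2 and 5 with Ccnd1. By title set (1, 2, 3), Ccnd1 reached 10 CPM in 16 of 31, 8 of 13 and 5 of 21 cells. Ccnd2 did so in 29 of 31, 9 of 13 and 15 of 21.

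**Figure D1:**
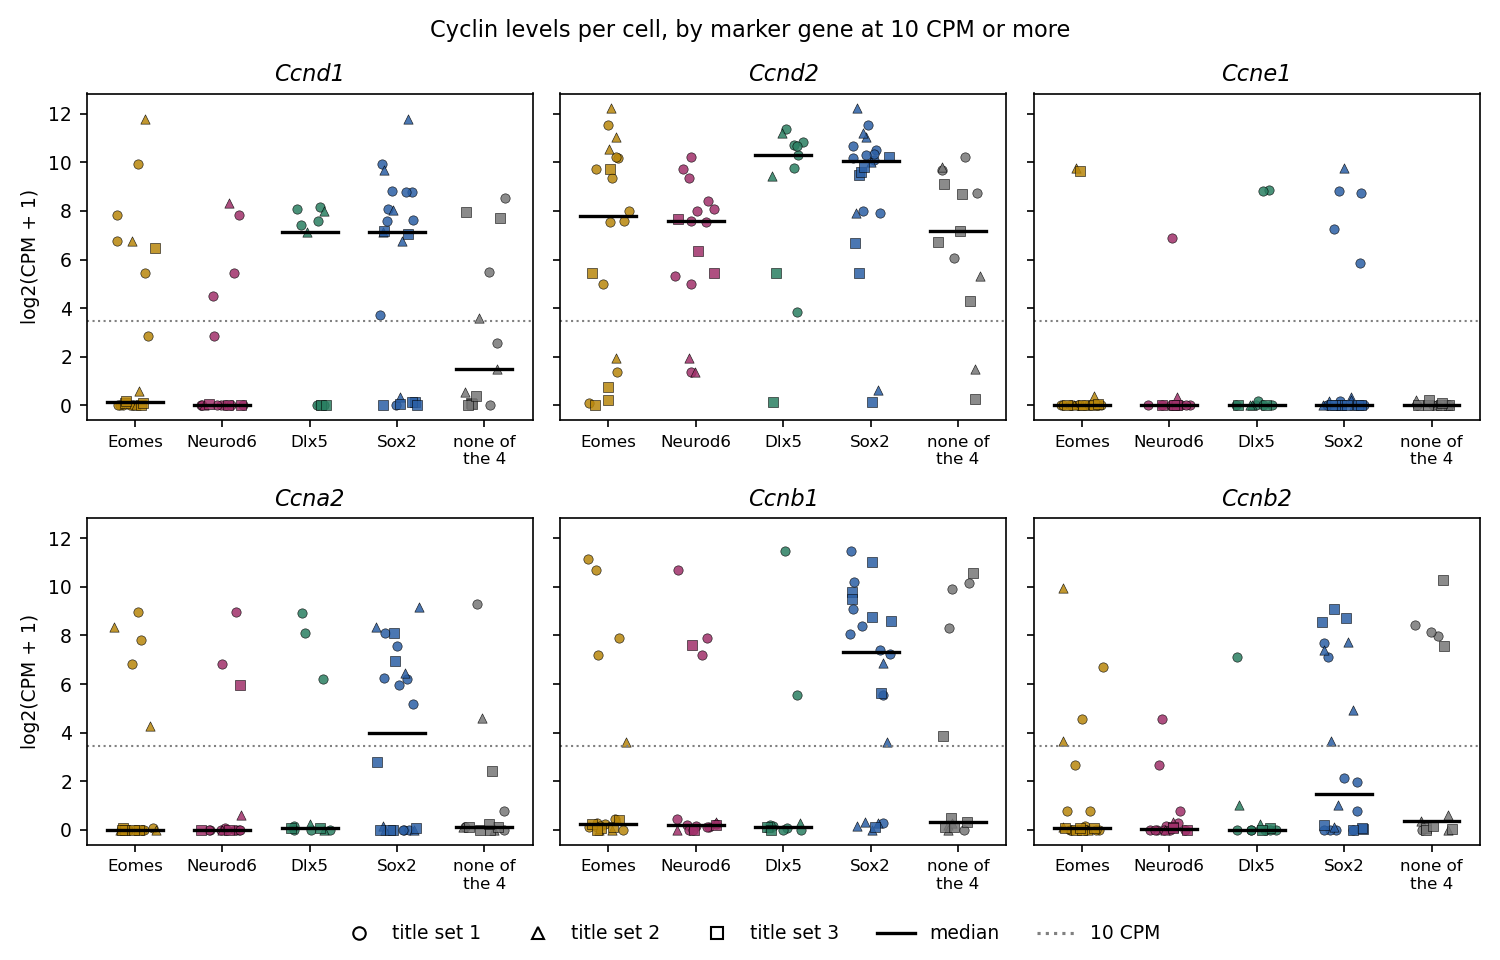
Level of each cyclin per cell as log2(CPM + 1), by marker class (Eomes, Neurod6, Dlx5, Sox2, and the 13 cells with none of the 4), with a bar at the median, a dotted line at 10 CPM and a symbol for the title set. A cell with several markers is drawn in each of its classes. Ccnd2 has its median above the line in all classes, from 142 CPM in the cells with none of the 4 to 1248 CPM in Dlx5 cells. Ccnb1 has its median above the line in Sox2 cells alone.

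Ccne1, which encodes cyclin E1, the partner of Cdk2 at the G1 to S transition, was the rarest of the 6. It reached 10 CPM in 8 of 65 cells (12.3%, interval 5.47 to 22.8%), and its gene lies on chromosome 7, 38097984 to 38107534 (GRCm38, minus strand). It was present in 2 of 20 Eomes cells (871 and 798 CPM), in 1 of 16 Neurod6 cells (117 CPM) and in 2 of 11 Dlx5 cells (459 and 446 CPM). Of 22 Sox2 cells it was present in 5, at 871, 446, 422, 150 and 57.6 CPM. None of the 13 cells without a marker had it, which allows a share of up to 23.1%. No cell lay near the threshold, since the lowest cell above it had 57.6 CPM and the highest below it had 0.318 CPM. By title set, 6 of 31, 1 of 13 and 1 of 21 cells had it, so that its pattern over classes rests mainly on set 1.

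Ccna2, which encodes cyclin A2 of S phase and G2, reached 10 CPM in 19 of 65 cells (29.2%, interval 18.6 to 41.8%). Its gene lies on chromosome 3, 36564865 to 36572150 (GRCm38, minus strand). It was present in 5 of 20 Eomes cells, 3 of 16 Neurod6 cells and 3 of 11 Dlx5 cells, and in 11 of 22 Sox2 cells. Levels in the cells that had it were 18.4 to 497 CPM in Eomes cells, 61.98 to 497 CPM in Neurod6 cells, 73.6 to 478 CPM in Dlx5 cells and 35.5 to 573 CPM in Sox2 cells. Once present, Ccna2 thus covered much the same range in all 4 classes. Its highest cell, at 624 CPM, had none of the 4 markers.

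Ccnb1 and Ccnb2 encode B cyclins, the partners of Cdk1 that drive entry into mitosis. Ccnb1, on chromosome 13, 100778650 to 100786570 (GRCm38, minus strand), reached 10 CPM in 26 of 65 cells (40%, interval 28.04 to 52.9%). It was present in 5 of 20 Eomes cells (25%, 8.66 to 49.1%), 4 of 16 Neurod6 cells (25%, 7.27 to 52.4%) and 2 of 11 Dlx5 cells (18.2%, 2.28 to 51.8%), and in 16 of 22 Sox2 cells (72.7%, 49.8 to 89.3%). The Sox2 interval began just above the end of that of Eomes cells and overlapped those of Neurod6 and Dlx5 cells slightly. Since classes share cells and the intervals cover counting error only, this is not a test between classes. Levels were 2237, 1660, 236, 144 and 11.4 CPM in the Eomes cells that had it, 1660, 236, 192 and 144 CPM in the Neurod6 cells, and 2846 and 45.4 CPM in the Dlx5 cells. Medians were 0.171 CPM in Eomes cells, 0.153 CPM in Neurod6 cells and 0.0972 CPM in Dlx5 cells, and 160 CPM in Sox2 cells, which ranged from 0 to 2846 CPM. The 2 Dlx5 cells with Ccnb1 both had Sox2 as well, and none of the 7 Dlx5 cells without Sox2 had it, which allows a share of up to 42.9%.

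Ccnb1 was also the cyclin whose level followed total reads most, with a Spearman rho of 0.44 over 65 cells, against -0.10 to 0.23 for the other 5. With the number of all genes at 10 CPM in a cell, the rho was 0.48 for Ccnb1, 0.44 for Ccnd1 and 0.40 for Ccna2. It was 0.20 for Ccnd2, 0.11 for Ccnb2 and 0.06 for Ccne1. Cells with Ccnb1 had a median of 20132231 reads and cells without it 12760524, and the part of depth in this was not tested. After every cell was thinned to 1000000 reads, Ccnb1 reached 10 CPM in 38.7% of the 62 cells deep enough, against 40.3% of the same cells unthinned. By title set, it was found in 4 of 11, 1 of 4 and 0 of 5 Eomes cells, in 3 of 11, 0 of 2 and 1 of 3 Neurod6 cells, in 2 of 7, 0 of 2 and 0 of 2 Dlx5 cells, and in 8 of 9, 2 of 6 and 6 of 7 Sox2 cells. Sets 1 and 3 both had it in most Sox2 cells and in a smaller share of each other class, whereas in set 2 the shares were low throughout.

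Ccnb2, on chromosome 9, 70407692 to 70421547 (GRCm38, minus strand), reached 10 CPM in 17 of 65 cells (26.2%, interval 16.03 to 38.5%). It was present in 4 of 20 Eomes cells at 997, 103, 22.3 and 11.7 CPM, in 1 of 16 Neurod6 cells at 22.3 CPM and in 1 of 11 Dlx5 cells at 136 CPM. In Sox2 cells it was present in 9 of 22, between 11.7 and 542 CPM. The value of 11.7 CPM is 1 read in the shallowest cell, which again counts in both the Eomes and the Sox2 class. Of the 13 cells without a marker, 5 had Ccnb2, at 1252, 345, 284, 248 and 189 CPM, and 5 had Ccnb1, at 1523, 1146, 952, 312 and 13.7 CPM. Neither of the 2 cells rich in mural and meningeal genes had Ccnb2, and 1 of them had Ccnb1, at 13.7 CPM. Without them, Ccnb2 was present in 5 and Ccnb1 in 4 of the 11 remaining cells without a marker.

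Reads at a trace level were common and were not counted as expression. A read of Ccnb1 was found in 55 of 65 cells, but in 24 of them it was 1 to 3 reads, and no cell below the threshold exceeded 0.398 CPM. Cells below the threshold held 0.0196% of all Ccnb1 reads and at most 0.412% of those of any other member, Ccna2. Reads do not carry strand, and in GENCODE M21 Ccnd1, Ccnd2 and Ccna2 each overlap a gene on the opposite strand, while Ccnb1 and Ccnb2 have a processed pseudogene elsewhere in the genome, so that reads shared with these cannot be told apart.

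Levels of different genes were compared per kilobase of their longest coding transcript (CPM/kb). Over all cells the mean was 115 CPM/kb for Ccnd2 and 115 CPM/kb for Ccnb1, then 55.7 for Ccnb2, 42.9 for Ccnd1, 25.6 for Ccne1 and 21.4 CPM/kb for Ccna2. The SD over cells exceeded the mean for each gene, for example 731 ± 921 CPM for Ccnd2 and 287 ± 602 CPM for Ccnb1 (SD, n = 65 cells), so that neighbours in this order did not differ beyond their spread. Among only the cells with the gene, medians were 217 CPM/kb for Ccne1, 144 for Ccnb1, 136 for Ccnb2, 112.5 for Ccnd2, 55.1 for Ccnd1 and 40.8 CPM/kb for Ccna2. Ccne1 was thus rare but abundant where present, and Ccna2 was the lowest of the 6 on both counts.

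**Figure D2:**
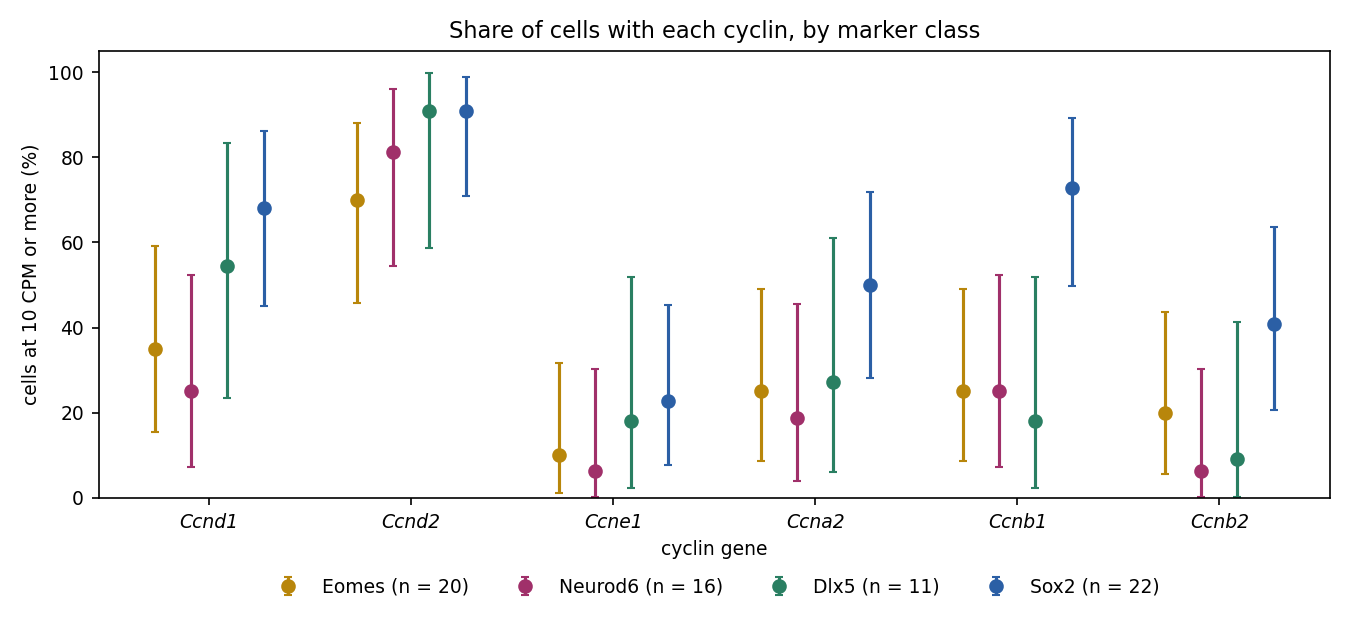
Percentage of cells at 10 CPM or more for each cyclin in Eomes, Neurod6, Dlx5 and Sox2 cells, with exact 95% binomial intervals that cover counting error only. Ccnd2 lies at 70% or above in all 4 classes, and Ccnb1 at 25% or below in all but Sox2 cells, where it is 72.7%.

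Read together, the classes differed less in the presence of a D cyclin than in that of Ccna2, Ccnb1 or Ccnb2. A D cyclin was present in 15 of 20 Eomes cells, 14 of 16 Neurod6 cells and 10 of 11 Dlx5 cells, and in 21 of 22 Sox2 cells. This evenness was that of Ccnd2 and not of Ccnd1. Ccnd1 alone was present in 35% of Eomes, 25% of Neurod6, 54.5% of Dlx5 and 68.2% of Sox2 cells. For Ccna2 alone the shares were 25%, 18.8%, 27.3% and 50% in that order. Any of Ccna2, Ccnb1 and Ccnb2 was present in 8 of 20 Eomes cells (40%, interval 19.1 to 63.9%), 6 of 16 Neurod6 cells (37.5%, 15.2 to 64.6%) and 3 of 11 Dlx5 cells (27.3%, 6.02 to 60.97%), and in 19 of 22 Sox2 cells (86.4%, 65.1 to 97.1%). The Sox2 interval lay above those of the Eomes, Neurod6 and Dlx5 cells, but it began at 65.1%, just above the 64.6% where that of Neurod6 cells ended. Classes share cells and the intervals cover counting error only, so this is a description and not a test between classes. The median number of the 6 cyclins per cell was 1 in Eomes cells, 1.5 in Neurod6 cells, 2 in Dlx5 cells and 4 in Sox2 cells.

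Of the 35 cells with any of Ccna2, Ccnb1 and Ccnb2, 33 also had Ccnd1 or Ccnd2 (94.3%), against 86.2% of all cells, and the other 2 were both in title set 3. Of the 56 cells with a D cyclin, 23 had none of the 3. Ccnd2 was the only cyclin of the 6 in 14 cells, among them 5 of 20 Eomes cells, 5 of 16 Neurod6 cells and 4 of 11 Dlx5 cells, and 1 of 22 Sox2 cells. None of the 6 reached 10 CPM in 4 of 20 Eomes cells, 2 of 16 Neurod6 cells and 1 of 11 Dlx5 cells, and in 0 of 22 Sox2 cells, which allows a share of up to 13.6%. All of Ccna2, Ccnb1 and Ccnb2 were present in 7 cells, and no cell had all 6 genes.

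**Figure D3:**
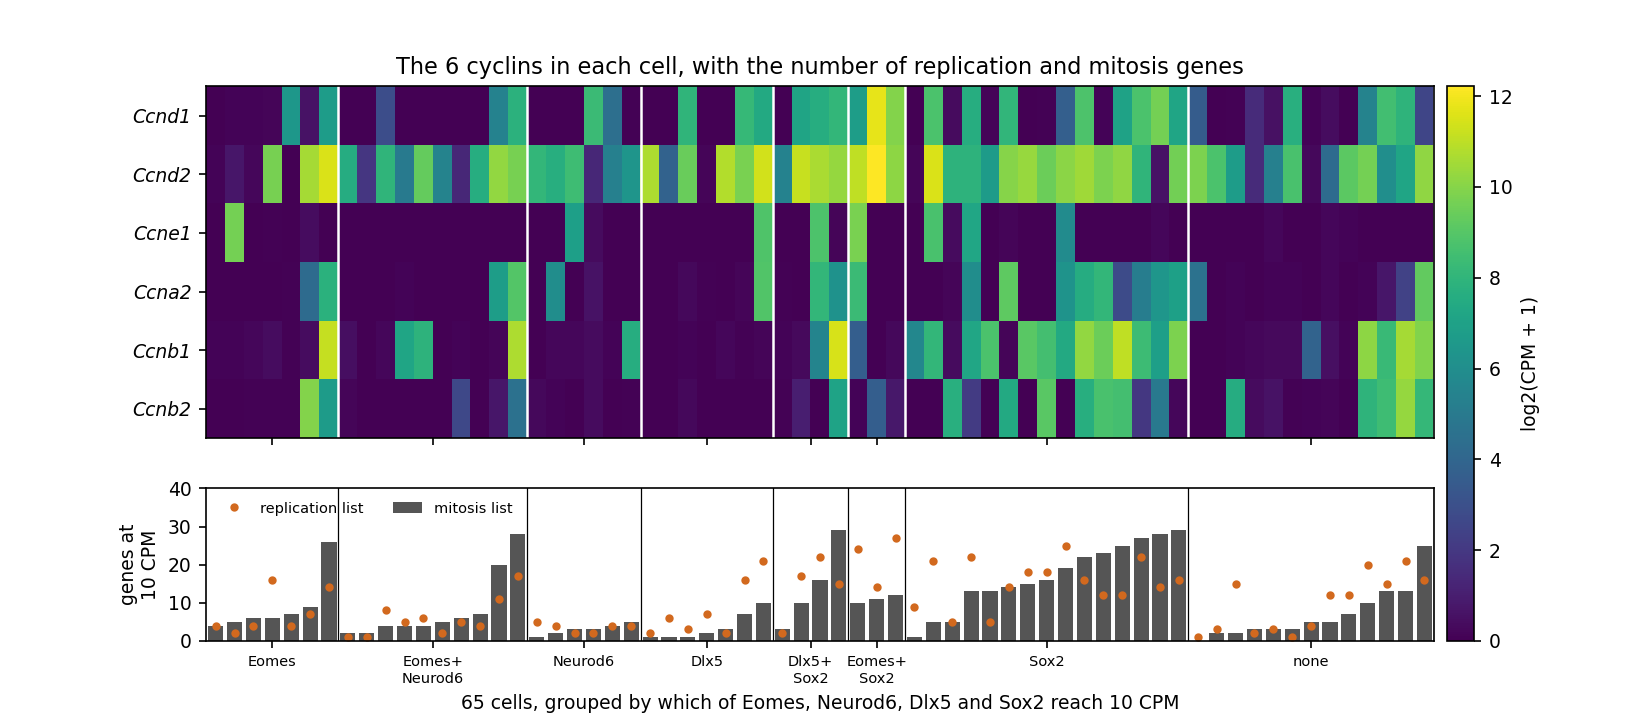
Upper panel: level of the 6 cyclins in each of 65 cells as log2(CPM + 1), with cells grouped by the exact combination of markers at 10 CPM and ordered within a group by the number of mitosis genes. Lower panel: number of genes of the replication list (points, of 27) and of the mitosis list (bars, of 32) at 10 CPM in the same cells. Ccnd2 extends over cells with few genes of either list, while Ccnb1 and Ccna2 gather in cells with many.

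Among the mitotic cyclins, Ccnb1 and Ccnb2 shared 12 cells, which were 46.2% of the 26 cells with Ccnb1 and 70.6% of the 17 with Ccnb2. Ccna2 shared 13 cells with Ccnb1 (68.4% of 19 and 50% of 26) and 9 with Ccnb2 (47.4% of 19 and 52.9% of 17). Ccne1 was found with Ccna2 in 5 of its 8 cells and with Ccnb1 in 5, against 29.2% and 40% of all cells. Ccne1 and Ccnb2 shared 0 cells of 8 and 17, which allows up to 37.5% of the Ccne1 cells and 17.6% of the Ccnb2 cells. Over all cells the shares were 26.2% for Ccnb2 and 12.3% for Ccne1, within those limits. The count therefore does not show that these genes exclude each other.

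Spearman correlations of CPM over the 65 cells, which share depth, sets and a pool of embryos, describe the same relations. The highest was 0.55 between Ccnd1 and Ccna2, followed by 0.50 between Ccnb1 and Ccnb2 and 0.48 between Ccna2 and Ccnb2. Ccnd1 and Ccnd2 had a rho of 0.37, and Ccne1 and Ccnb2 one of -0.04. Over the 38 cells with neither Neurod6 nor Dlx5, the rho of Ccnd1 with Ccna2 was 0.46 and that of Ccnb1 with Ccnb2 was 0.47. Within title sets 1, 2 and 3 the rho of Ccnb1 with Ccnb2 was 0.60, 0.40 and 0.62, and that of Ccnd1 with Ccna2 was 0.57, 0.28 and 0.39. The pairs of Ccnd2 were less even, since its rho with Ccnb1 was 0.26 over all cells and 0.36, -0.24 and 0.53 within the sets, and its rho with Ccna2 was 0.34 over all cells and 0.40, -0.0056 and 0.39 within them.

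**Figure D4:**
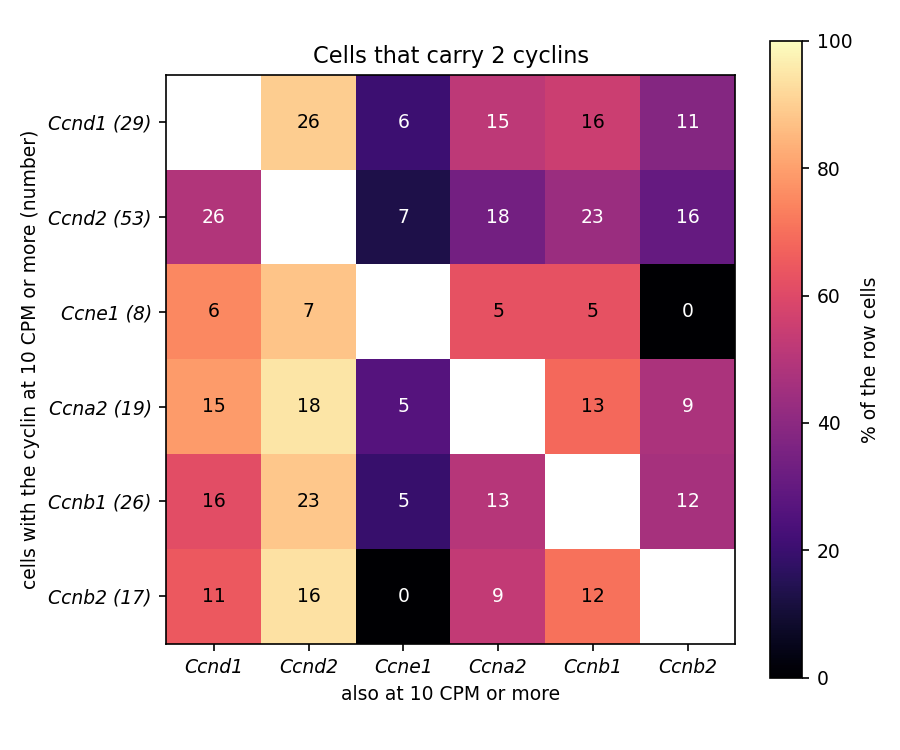
Number of cells in which 2 cyclins both reach 10 CPM, written in each square, with the colour giving it as a percentage of the cells that have the cyclin of the row. Ccnd2 accompanies 87.5% or more of the cells of every other cyclin, against 81.5% of all cells. The square of Ccne1 and Ccnb2 is at 0, from only 8 cells with Ccne1 and 17 with Ccnb2.

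The cyclins were then set beside 2 lists of genes, 27 for DNA replication (MCM helicases, nucleotide supply, clamp and polymerase genes) and 32 for mitosis (kinetochore, spindle and condensin genes), by counting the list genes at 10 CPM in each cell. By the median, cells with Ccne1 had the most replication genes, 21.5 of 27, with 10 of 32 mitosis genes, against 7 and 6 without it. The 8 cells ranged from 2 to 25 replication genes. The Eomes cell with Ccne1 at 798 CPM and the Neurod6 cell at 117 CPM had 2 each. Cells with Ccna2 had medians of 16 replication and 20 mitosis genes, against 5 and 5 in cells without it. Cells with Ccnb1 had 16 and 15.5, against 4 and 4 without it, and cells with Ccnb2 had 15 and 16, against 5 and 5. Ccnd1 behaved more like these genes, with 16 and 13 in the cells that had it and 5 and 4 in those that did not. Ccnd2 separated cells less, with 12 and 7 in the cells that had it and 4 and 4.5 in those that did not. What part the number of all genes at 10 CPM in a cell has in these counts was not tested.

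The 7 cells with all of Ccna2, Ccnb1 and Ccnb2 had 22 to 29 of the 32 mitosis genes, with 12 to 17 of the 27 replication genes. The 23 cells with a D cyclin but none of those 3 had medians of 4 replication and 3 mitosis genes, and a median of 1075 CPM of Dcx, a microtubule protein gene of migrating neurons. The 14 cells with Ccnd2 alone had 3.5 and 3, close to the 4 and 3.5 of the 6 cells with none of the cyclins. Presence of Ccnd2 therefore came in cells with very different numbers of cycle genes, from 1 to 27 replication genes and from 0 to 29 mitosis genes.

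**Figure D5:**
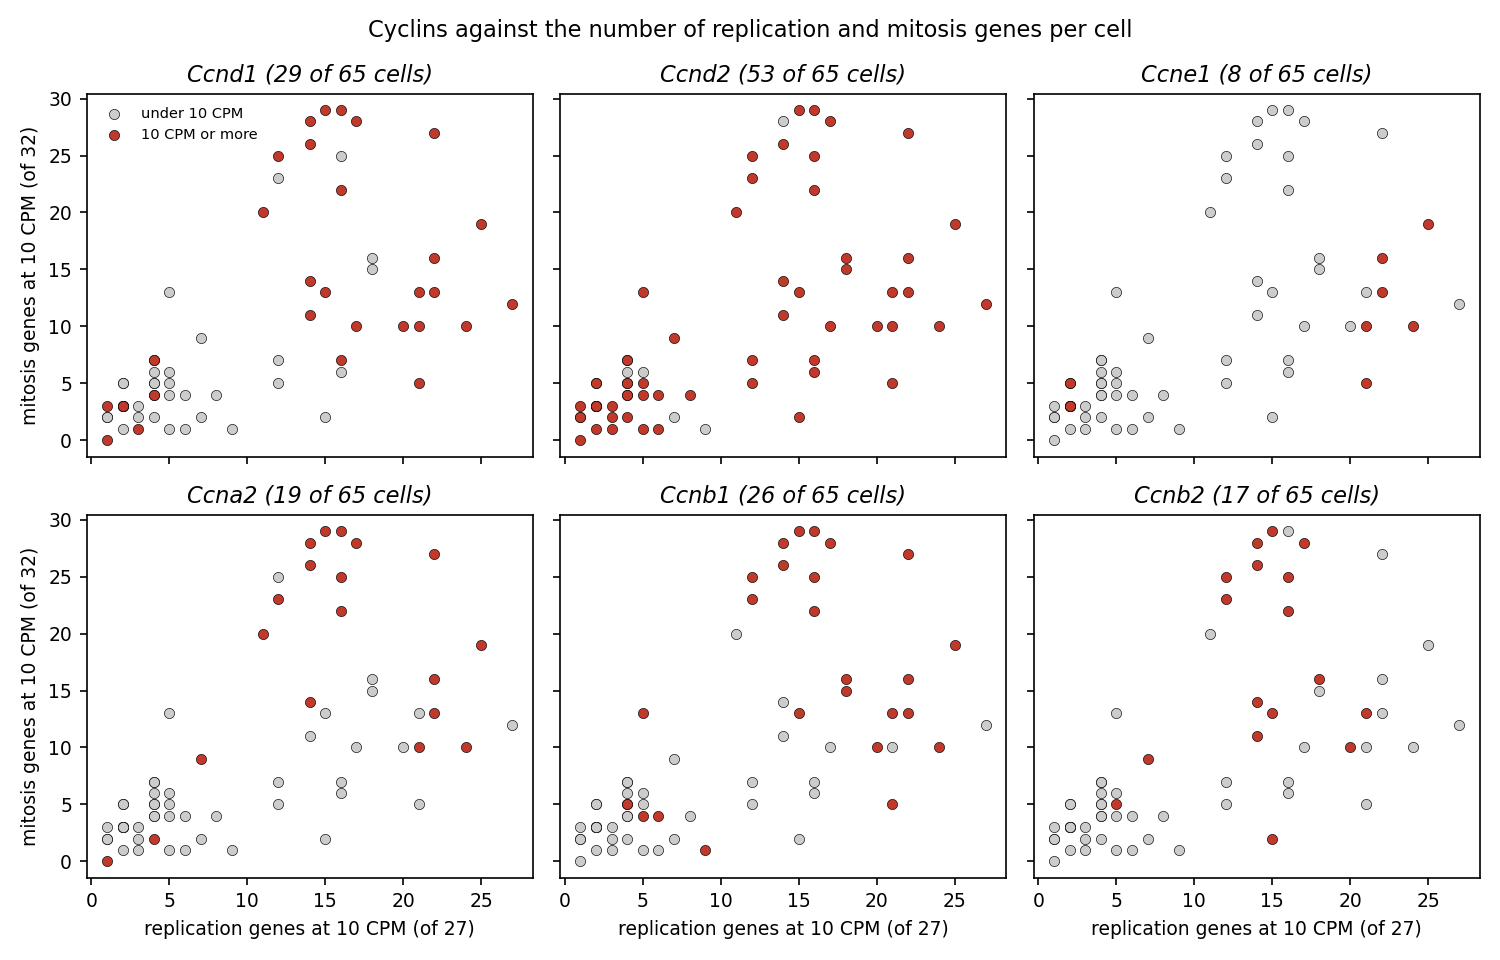
Each point is a cell, placed by its number of replication list genes (of 27) and mitosis list genes (of 32) at 10 CPM, with 1 panel per cyclin and cells at 10 CPM or more of that cyclin in red. Cells with Ccne1 lie mostly to the lower right, those with Ccna2 and the B cyclins reach the top, and those with Ccnd2 fill the whole field.

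Mitotic cyclins were present in a few Neurod6 cells. A cell of title set 1 with both Eomes (509 CPM) and Neurod6 (364 CPM) had Ccnb1 at 1660, Ccna2 at 497 and Ccnb2 at 22.3 CPM, with 28 of 32 mitosis genes and 17 of 27 replication genes. Counting Eomes and Neurod6 themselves, which set its classes, this cell had 5 of 5 intermediate progenitor genes and 2 of 5 excitatory neuron genes at 10 CPM. It also had 3 of 5 neuronal genes, with Dcx at 1.43 CPM. It supplies the highest Ccna2, Ccnb1 and Ccnb2 values among Neurod6 cells. Neurod6 cells with Ccnb1 had a median of 4.5 mitosis genes over 4 cells, against 3.5 in the 12 without it, so the other cells with Ccnb1 in that class had few. The 3 Neurod6 cells with Ccna2 had a median of 20, with a range of 2 to 28, against 4 in the 13 without it. Another cell of title set 1, with Eomes at 366 and Neurod6 at 2133 CPM, had Ccna2 at 111 CPM. It had 20 of 32 mitosis genes and 11 of 27 replication genes, with Ccnb1 at 0.116 CPM. Dlx5 cells with Ccnd1 had medians of 16.5 replication and 10 mitosis genes over 6 cells, against 2 and 2 in the 5 without it.

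Mean levels were compared between classes with cells carrying both markers left out, as log2 ratios of mean CPM plus 1. These ratios have no test, and a difference past 2-fold was counted among the 9666 genes with a mean of 5 CPM or more. The 3 comparisons share the Sox2 cells and are given side by side. Most genes passed 2-fold one way or the other in each, so the same comparison was also made on the percentage of cells at 10 CPM, where a difference of 25 points or more was counted.

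In Eomes over Sox2 cells (17 and 19 cells), 2 of the 6 cyclins were past 2-fold lower, against 30.1% of all genes tested, and none was past 2-fold higher, against 23.7%. Ccnd1 averaged 27.7 ± 61.1 CPM in Eomes cells and 184 ± 223 CPM in Sox2 cells (SD over cells), a log2 ratio of -2.69. Ccnb1 averaged 252 ± 650 CPM in Eomes cells and 537 ± 766 CPM in Sox2 cells, a log2 ratio of -1.09. This ratio was -8.55 without title set 1, -4.46 as a difference of mean log2(CPM + 1) and -1.71 without the cell with 28 mitosis genes, but -0.40 without title set 3 and -0.61 over cells with exactly 1 of the 4 markers. The other log2 ratios were -0.84 for Ccnd2, -0.27 for Ccne1, -0.89 for Ccna2 and -0.72 for Ccnb2, against a median of -0.11 for all genes. That of Ccne1 turned to 6.77 without title set 1, and that of Ccna2 was -2.04 without the cell with 28 mitosis genes. The direction of Ccnb2 turned too, to 0.58 without title set 3 and to 0.27 over cells with exactly 1 marker. By the share of cells, 3 of 6 were lower by 25 points or more in Eomes cells, Ccnb1 by a difference of -55.4 points, Ccnd1 by -39.6 and Ccna2 by -29.1, against 6.93% of all genes. Ccnd2 and Ccnb2 lay just short at -24.8 and -24.5 points, and the share of all genes that were higher by as much was 4%.

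In Neurod6 over Sox2 cells (16 and 22 cells), all 6 cyclins were past 2-fold lower, against 33% of all genes tested, with 23.4% past 2-fold higher. Ccnd2 averaged 271 ± 343 CPM in Neurod6 cells and 1159 ± 1130 CPM in Sox2 cells, a log2 ratio of -2.09. Its share of cells differed by only -9.66 points, so that Ccnd2 was present in about as many Neurod6 cells but at lower levels. The log2 ratio was -3.22 for Ccnd1, -3.43 for Ccne1, -1.16 for Ccna2, -1.73 for Ccnb1 and -5.10 for Ccnb2, with a median of -0.21 for all genes. Without the cell of set 1 with 28 mitosis genes, the ratio was -2.93 for Ccna2 and -3.57 for Ccnb1. The ratio of Ccna2 was -0.52 without title set 2, and that of Ccnd1 was -2.54 without cells under 1000000 reads. By the share of cells, 4 of 6 were lower by 25 points or more in Neurod6 cells, against 7.59% of all genes, and 6.35% of genes were higher by as much. These were Ccnb1 (-47.7 points), Ccnd1 (-43.2), Ccnb2 (-34.7) and Ccna2 (-31.3).

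In Dlx5 over Sox2 cells (7 and 18 cells), 3 of 6 cyclins were past 2-fold lower, against 41.3% of all genes tested, with 22.8% past 2-fold higher. Ccnd2 averaged 1097 ± 986 CPM in Dlx5 cells and 1123 ± 1185 CPM in Sox2 cells, a log2 ratio of -0.03, which was -1.64 without title set 1 and 0.43 over cells with exactly 1 marker. Ccnb1 averaged 0.0605 ± 0.0638 CPM in Dlx5 cells and 407 ± 540 CPM in Sox2 cells, and Ccnb2 averaged 0.0264 ± 0.0698 CPM in Dlx5 cells and 109 ± 173 CPM in Sox2 cells. Ccnd1 averaged 101 ± 131 CPM in Dlx5 cells and 413 ± 816 CPM in Sox2 cells, a log2 ratio of -2.02, which was -1.28 without cells under 1000000 reads and -0.92 over cells with exactly 1 marker. The log2 ratios of Ccne1 and Ccna2 were -0.34 and -0.49, and they turned to 0.65 and 0.44 without title set 2. By the share of cells, 3 of 6 were lower by 25 points or more in Dlx5 cells, Ccnb1 (-77.8 points), Ccnb2 (-44.4) and Ccna2 (-35.7), against 11.9% of all genes, and 6.78% were higher by as much. The Dlx5 cells without Sox2 were only 7, of which 5 came from title set 1, so that the mean of Ccnd2 near that of Sox2 cells rests on this set. The B cyclins were past 2-fold lower also without it. Since sets 2 and 3 held only 1 such cell each, this cannot show that their difference is independent of the set.

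The partners and regulators of the cyclins were read from 9 lists with 132 entries, of which 126 were measured, and the rest, Cdk6 and Ccna1 among them, are not analysed here. Each count of genes past 2-fold below stands against the shares of all genes given above. Counts by the share of cells stand against 6.93%, 7.59% and 11.9% of all genes lower by 25 points or more. Those higher by as much were 4%, 6.35% and 6.78%, all in the order Eomes, Neurod6 and Dlx5 over Sox2 cells. All 3 comparisons share the Sox2 cells. Median log2 ratios of the lists in Neurod6 over Sox2 cells were -0.68 for the kinases, -1.15 for the other cyclins, 0.50 for the CDK inhibitors, -1.80 for Rb and E2F, -1.43 for DREAM, MuvB, B-Myb and Foxm1, -1.61 for the CDK1 phosphatases and kinases and -0.59 for cyclin degradation, against -0.21 for all genes. Of 4 cyclin-dependent kinases tested, the number past 2-fold lower was 1 in Eomes over Sox2 cells, 2 in Neurod6 over Sox2 cells and 2 in Dlx5 over Sox2 cells, with 0, 0 and 1 higher. By the share of cells, 1, 2 and 1 of the 4 were lower by 25 points or more in the same order. Cdk4, the partner of the D cyclins, was near uniform, at 10 CPM in 19 of 20 Eomes cells, 16 of 16 Neurod6 cells, 11 of 11 Dlx5 cells and 22 of 22 Sox2 cells, with class means of 1435, 1412, 2002 and 1397 CPM. Cdk1, the partner of the B cyclins, was present in 8 of 20 Eomes cells, 4 of 16 Neurod6 cells and 3 of 11 Dlx5 cells, and in 11 of 22 Sox2 cells. Cdk2, the partner of cyclins E and A, was present in 3 of 20 Eomes cells, 0 of 16 Neurod6 cells and 5 of 11 Dlx5 cells, and in 11 of 22 Sox2 cells. A count of 0 of 16 cells allows a share of up to 18.8%.

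Of 18 other cyclins tested, 8 were past 2-fold lower and 3 higher in Eomes over Sox2 cells, 10 lower and 4 higher in Neurod6 over Sox2 cells, and 8 lower and 6 higher in Dlx5 over Sox2 cells. On the percentage of cells, only 1, 1 and 0 of the 18 were lower by 25 points or more, and 0, 0 and 1 higher, against 6.93%, 7.59% and 11.9% of all genes lower. Ccnd3, the third D cyclin, was present in 9 cells in all, in 1 of 20 Eomes cells, 0 of 16 Neurod6 cells and 2 of 11 Dlx5 cells, and in 6 of 22 Sox2 cells. Ccne2, the other E cyclin, was present in 5 of 20 Eomes cells, 3 of 16 Neurod6 cells and 2 of 11 Dlx5 cells, and in 4 of 22 Sox2 cells. Ccnf, an F-box protein gene of G2, was present in 1 of 20 Eomes cells, 0 of 16 Neurod6 cells and 1 of 11 Dlx5 cells, and in 4 of 22 Sox2 cells. Ccnc, a subunit of the Mediator kinase module, averaged 13.48 CPM in Neurod6 cells and 90.3 CPM in Sox2 cells. Ccng2, a cyclin known from cells that have stopped dividing, ran the other way by its mean, with 151 CPM in Neurod6 cells and 40.8 CPM in Sox2 cells. Its log2 ratio was 1.86, but it was present in only 6 of 16 Neurod6 cells and 5 of 22 Sox2 cells.

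Of the CDK inhibitors, 3 were tested, of which 0, 1 and 1 were past 2-fold lower and 2, 1 and 1 higher in Eomes, Neurod6 and Dlx5 cells over Sox2 cells. None had a share of cells lower by 25 points or more, and 0, 0 and 1 had one higher by as much. Cdkn1c, which encodes p57, averaged 54.7 CPM in Eomes cells, 80.2 CPM in Neurod6 cells and 766 CPM in Dlx5 cells, and 33.2 CPM in Sox2 cells, and it was present in 7, 7, 6 and 5 of those cells. Cdkn1b, which encodes p27, was present in 18 of 20 Eomes cells, 15 of 16 Neurod6 cells and 8 of 11 Dlx5 cells, and in 17 of 22 Sox2 cells. Cdkn1a, which encodes p21, was present in 5 cells in all, with 0 of 16 Neurod6 cells and 1 of 22 Sox2 cells.

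Of 12 genes of the Rb and E2F list, 7 were past 2-fold lower in Eomes over Sox2 cells, 10 in Neurod6 over Sox2 cells and 11 in Dlx5 over Sox2 cells, with 2, 2 and 0 higher. The share of cells was lower by 25 points or more for 4, 6 and 4 of the 12. E2f3, an activating E2F, was present in 2 of 20 Eomes cells, 0 of 16 Neurod6 cells and 4 of 11 Dlx5 cells, and in 12 of 22 Sox2 cells. E2f1, another activating E2F, was present in 3 of 20 Eomes cells, 0 of 16 Neurod6 cells and 3 of 11 Dlx5 cells, and in 6 of 22 Sox2 cells. E2f7, an atypical E2F that represses, was present in 1 of 20 Eomes cells, 0 of 16 Neurod6 cells and 1 of 11 Dlx5 cells, and in 6 of 22 Sox2 cells. Of the pocket protein genes, Rb1 averaged 68.3 CPM in Neurod6 cells and 19.6 CPM in Sox2 cells, and it was present in 6 and 4 of those cells. Its log2 ratio was 1.59 within title set 1 and -0.01 within set 3. Rbl1, which encodes p107, averaged 15.7 CPM in Neurod6 cells and 80.7 CPM in Sox2 cells. The log2 ratio of Rbl1 was -0.03 within set 1 and -7.08 within set 3, so the direction of each gene rests mainly on 1 set. E2f4, which acts mainly in repression, averaged 13.3 CPM in Neurod6 cells and 55.7 CPM in Sox2 cells.

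Of 6 genes of the DREAM, MuvB, B-Myb and Foxm1 list, which act on the promoters of late cell cycle genes, 1 was past 2-fold lower in Eomes over Sox2 cells, 4 in Neurod6 over Sox2 cells and 3 in Dlx5 over Sox2 cells, with 2, 0 and 1 higher. Shares of cells were lower by 25 points or more for 1, 1 and 2 of the 6, against 6.93%, 7.59% and 11.9% of all genes. With only 6 genes, the 2-fold counts in Eomes cells did not stand apart from the 30.1% lower and 23.7% higher of all genes. Foxm1, an activator of B cyclin genes, was present in 6 of 20 Eomes cells, 4 of 16 Neurod6 cells and 2 of 11 Dlx5 cells, and in 9 of 22 Sox2 cells. Lin9, a MuvB subunit, was present in 1 of 20 Eomes cells, 1 of 16 Neurod6 cells and 1 of 11 Dlx5 cells, and in 7 of 22 Sox2 cells. Mybl2, which encodes B-Myb, was present in 4 cells only. Of 4 CDK1 phosphatases and kinases, 2, 3 and 3 were past 2-fold lower in Eomes, Neurod6 and Dlx5 cells over Sox2 cells, with 1 higher in each, whereas by the share of cells 0, 1 and 2 of the 4 were lower by 25 points or more. Cdc25c, a phosphatase that activates Cdk1, averaged 51.6 CPM in Neurod6 cells and 187 CPM in Sox2 cells, whereas Cdc25a, its relative of the G1 to S transition, averaged 159 CPM in Neurod6 cells and 27.1 CPM in Sox2 cells. Cdc25c was present in 2 of 16 Neurod6 cells and 7 of 22 Sox2 cells, and Cdc25a in 7 and 5 of them. Cdc25b, the third family member, averaged 154 CPM in Dlx5 cells and 31.6 CPM in Sox2 cells. It was present in 3 of 11 Dlx5 cells and 4 of 22 Sox2 cells. Wee1, the kinase that restrains Cdk1, was present in 3 of 20 Eomes cells, 0 of 16 Neurod6 cells and 0 of 11 Dlx5 cells, and in 6 of 22 Sox2 cells, and a count of 0 of 11 allows a share of up to 27.3%.

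Of 15 genes of cyclin destruction and its control, 6, 6 and 7 were past 2-fold lower in Eomes, Neurod6 and Dlx5 cells over Sox2 cells, with 1 higher in each, and by the share of cells 3, 6 and 6 of the 15 were lower by 25 points or more. Cdc20, the activator of the anaphase-promoting complex in mitosis, was present in 5 of 20 Eomes cells, 3 of 16 Neurod6 cells and 2 of 11 Dlx5 cells, and in 11 of 22 Sox2 cells. Fbxo5, which encodes Emi1, an inhibitor of that complex, was present in 5 of 20 Eomes cells, 1 of 16 Neurod6 cells and 2 of 11 Dlx5 cells, and in 7 of 22 Sox2 cells. Skp2, the F-box protein that targets p27, was present in 4 of 20 Eomes cells, 1 of 16 Neurod6 cells and 2 of 11 Dlx5 cells, and in 7 of 22 Sox2 cells. Cks2, a small Cdk1 subunit, was present in 10 of 20 Eomes cells, 5 of 16 Neurod6 cells and 5 of 11 Dlx5 cells, and in 16 of 22 Sox2 cells.

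Of the 27 replication genes, 23 were past 2-fold lower in Eomes over Sox2 cells, 26 in Neurod6 over Sox2 cells and 19 in Dlx5 over Sox2 cells, with 1, 0 and 1 higher and median log2 ratios of -2.11, -2.51 and -1.12. By the share of cells, 19, 23 and 18 of 27 were lower by 25 points or more in the same order. Rpa2, a single-strand DNA binding subunit, and Hells, a chromatin remodeller of S phase, were each present in 0 of 16 Neurod6 cells and in 16 of 22 Sox2 cells. Pola1 of the DNA polymerase alpha complex and Gins2 of the replicative helicase were each present in 0 of 16 Neurod6 cells and in 11 of 22 Sox2 cells.

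Of the 32 mitosis genes, 20 were past 2-fold lower in Eomes over Sox2 cells, 21 in Neurod6 over Sox2 cells and 28 in Dlx5 over Sox2 cells, with 1, 1 and 0 higher and median log2 ratios of -1.37, -1.53 and -5.22. By the share of cells, 17, 20 and 25 of 32 were lower by 25 points or more. Incenp, of the chromosomal passenger complex, was present in 2 of 20 Eomes cells, 1 of 16 Neurod6 cells and 1 of 11 Dlx5 cells, and in 12 of 22 Sox2 cells. Bub1, a spindle checkpoint kinase, was present in 3 of 20 Eomes cells, 1 of 16 Neurod6 cells and 3 of 11 Dlx5 cells, and in 9 of 22 Sox2 cells. Ckap2, a spindle protein gene, was present in 5 of 20 Eomes cells, 2 of 16 Neurod6 cells and 2 of 11 Dlx5 cells, and in 9 of 22 Sox2 cells. The checkpoint kinase gene Ttk reached 10 CPM in 6 cells in all. Plk1, a mitotic kinase, went against the list by its mean, with 111 CPM in Neurod6 cells and 36.6 CPM in Sox2 cells, but it was present in 2 of 16 Neurod6 cells and in 5 of 22 Sox2 cells.

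The genes whose levels over the 65 cells were most like those of each cyclin were sought among 5996 genes at 10 CPM in 10 or more cells with a positive rho in every title set, and these are descriptions with no test. Ccnd1 was nearest to Asf1b, a histone chaperone gene of S phase (rho 0.65), which reached 10 CPM in 15 cells, all of them with Ccnd1. Next came the MCM helicase gene Mcm2 (0.61), Cdk2 (0.60), the single-strand binding gene Rpa1 (0.60) and the RNA-binding gene Lsm2 (0.58). Ccnd2 was nearest to Mcm2 (0.55), the Mediator gene Med18 (0.52), the dUTPase gene Dut (0.52), the DNA repair gene Xrcc1 (0.50) and Lsm2 (0.49). Mcm2 and Lsm2 were thus among the 5 nearest genes of both D cyclins.

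Ccne1 was nearest to the DNA repair gene Brca1 (0.50), and other near genes were Zfp828 (0.48), the centromere gene Mis18a (0.47) and Tssc4 (0.47). These rest on few cells, since Brca1 and Ccne1 shared 4. Ccna2 was nearest to Bub1 (0.57), C330027C09Rik (0.56), the exosome gene Exosc2 (0.56), the ribosome biogenesis gene Utp18 (0.55) and Cdc20 (0.55). Ccnb1 had the highest values of the 6, with the mitotic kinesin gene Kif20a (0.68), the passenger complex gene Cdca8 (0.68), the SUMO ligase gene Nsmce2 (0.65), the chromatin protein gene Hmgb2 (0.65) and Cks2 (0.63). Kif20a reached 10 CPM in 14 cells, and 13 of them had Ccnb1. Ccnb2 was nearest to Tcf7l2, a transcription factor of Wnt signalling (0.61), followed by the proliferation marker Mki67 (0.59), C330027C09Rik (0.58), 1190002F15Rik (0.58) and Hmgb2 (0.57). Hmgb2 was thus among the 5 nearest genes of both B cyclins.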

How the data were processed

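Single-cell RNA-seq of 65 sorted cells was analysed as 1 group. The deposited values are raw counts, whole numbers of reads per gene and cell, for 11971 genes that each have a read in at least 5 cells. Per the submitters' processing notes, the tools were TopHat2 and HTSeq and the build was mm9, with no versions. Which annotation was counted is not given in the sources used. Per the labels' protocols, the kit gives full-length cDNA, and no molecular identifiers are mentioned, so a read is not an independent molecule.

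Each count was divided by its cell's total and expressed as CPM. A gene was present at 10 CPM or more. Class ratios used a pseudocount of 1 CPM, genes of mean 5 CPM or more, and a 2-fold threshold. Shares carry exact Clopper-Pearson 95% intervals, and the limit of a count of 0 is 3 cells. Lengths and gene positions are from GENCODE M21 (GRCm38) and promoters from RefSeq (GRCm38.p6), neither in the build of the counts. Doublets were not called, as cells were sorted 1 by 1. Python 3.11.15, numpy 2.4.6, pandas 2.3.3, scipy 1.17.1, R 4.3.3 and scran 1.30.0 were used. The calculation of the ratios was checked on simulated counts with planted ratios. Their spread over cells was set near the mean, whereas the SD exceeded the mean for each cyclin. The check therefore covers the calculation and not how far a cyclin ratio can be relied on.

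Besides the 6 cyclins, 4 markers and 16 fixed genes, the text names from each list up to 4 genes with the largest Neurod6 over Sox2 ratio past 2-fold and of the same sign in title sets 1 and 3, and the 5 genes most like each cyclin, of which 1 near Ccne1 is not reported here. Members and lists were chosen with earlier results of these data known.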

Additional observations from a re-analysis of the deposited data

How the results depend on the processing

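Counting a single read as presence raised the share of all cells to 69.2% for Ccnd1, 98.5% for Ccnd2, 27.7% for Ccne1, 53.8% for Ccna2, 84.6% for Ccnb1 and 63.1% for Ccnb2. By class it gave Ccnd1 in 60%, Ccnd2 in 95%, Ccnb1 in 80% and Ccnb2 in 60% of Eomes cells, Ccnd2 in 100%, Ccnb1 in 75% and Ccnb2 in 50% of Neurod6 cells, Ccnd2 in 100%, Ccna2 in 63.6% and Ccnb1 in 72.7% of Dlx5 cells, and Ccnd1 in 86.4%, Ccnd2 in 100%, Ccnb1 in 95.5% and Ccnb2 in 77.3% of Sox2 cells. Only cells with exactly 1 marker gave Ccnd2 in 42.9% of Eomes cells, and 0% for Ccnb2 in Neurod6 cells and for Ccnb1 and Ccnb2 in Dlx5 cells. The other 78 alternative class shares and 24 alternative shares of all cells moved by less than the counting interval.

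Of the alternative class ratios, 140 kept their direction and side of 2-fold, 9 stayed within 2-fold but changed sign, 19 passed 2-fold only under the alternative, 4 lost it and 2 turned past it. Those that changed sign within 2-fold were Ccnb2 in Eomes over Sox2 cells (0.27 over cells with exactly 1 marker, 0.58 without set 3), and, in Dlx5 over Sox2 cells, Ccnd2 (0.11 with scran size factors, 0.31 without cells under 1000000 reads, 0.43 over cells with exactly 1 marker, 0.33 without set 2), Ccne1 (0.63 over cells with exactly 1 marker, 0.65 without set 2) and Ccna2 (0.44 without set 2). Over all alternatives in Neurod6 over Sox2 cells, the ratio lay between -3.78 and -1.76 for Ccnd1, -4.03 and -1.60 for Ccnd2, -6.01 and -1.07 for Ccne1, -3.06 and -0.52 for Ccna2, -3.88 and -1.26 for Ccnb1, and -6.98 and -2.68 for Ccnb2. In Eomes over Sox2 cells, the mean of log2(CPM + 1) gave -2.62 for Ccnd2, -1.07 for Ccne1, -2.19 for Ccna2 and -2.04 for Ccnb2. Without the highest cell of each class these were -1.17, -5.14, -1.55 and -3.24. Cells with exactly 1 marker gave 1.42 for Ccne1, -1.44 for Ccna2 and -0.61 for Ccnb1. Ccne1 reached 6.77 without title set 1 and -6.47 without set 3, Ccna2 -4.74 without set 1, Ccnb1 -0.40 without set 3 and Ccnb2 -3.53 without set 2. Without the cell of set 1 that carried 28 mitosis genes, Ccna2 was -2.04. In Neurod6 over Sox2 cells, Ccna2 was -0.52 without set 2. In Dlx5 over Sox2 cells, cells with exactly 1 marker gave -0.92 for Ccnd1, and the mean of log2(CPM + 1) gave -2.38 for Ccna2. Without the highest cells Ccne1 was -5.25 and Ccna2 -6.04, and without set 1 Ccnd2 was -1.64, Ccne1 -6.33 and Ccna2 -6.81. Except where the number of cells shows it, the cause was not tested. The rho of Ccnd2 with Ccna2 was -0.0056 within set 2, and 20 other alternative correlations moved by over 0.2, most of them within sets 2 and 3.

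The comparison of shares, the ratios without that cell, the shares of unmarked cells without those rich in mural and meningeal genes and the shares without the 3 cells under 1000000 reads were chosen after the data were seen. No paired analysis was possible because the cells form 1 group. Depth limits the shallowest cell, where 1 read is 11.7 CPM, and the small number of cells limits every class.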
